A study of Mus musculus with 3 samples.

Results

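The unfolded protein response and the integrated stress response were followed in mouse liver through 10 genes: Hspa5, Ddit3, Atf3, Atf4, Trib3, Xbp1, Dnajb9, Herpud1, Chac1 and Asns. They were taken by gene symbol, and all 10 were among the 18193 genes that the arrays read through probe sets annotated to a single gene. They had 21 such probe sets, and the probe set with the highest mean over the arrays stood for each gene. The Cre virus liver came from a mouse given the virus MUP-iCre-AAV8, an adeno-associated virus of serotype 8 that carries the iCre recombinase (Cre virus, n = 1). The control virus livers came from mice given MUP-EGFP-AAV8, which carries EGFP in place of iCre (control virus, n = 2). The labels do not spell out the prefix MUP and do not say which cells express the cargo. All mice were 3 months old and of mixed strain, each received 400 microL by intraperitoneal injection, and livers were taken 1 week later. The sample labels give the genotype as HNF4alpha knockout for the Cre virus liver and as wild type for the control livers, whereas the series design has floxed HNF4alpha mice under both viruses, so genotype and virus cannot be told apart as sources of a difference.

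When misfolded proteins build up in the endoplasmic reticulum (ER), the membrane sensors IRE1, PERK and ATF6 set off the unfolded protein response. IRE1 splices the messenger RNA of Xbp1, ATF6 is cut free in the Golgi, and PERK phosphorylates the translation factor eIF2alpha, which lowers protein synthesis overall while favouring translation of ATF4. Other kinases that sense missing amino acids, heme or viral RNA act on the same factor, and that shared arm is the integrated stress response. Hepatocytes secrete most plasma proteins and depend on this system for folding them. Arrays of this kind measure transcript levels, so splicing of Xbp1, cleavage of ATF6 and translation of ATF4 were not measured.

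Each array gave RMA log2 expression values, and the differences below are the Cre virus array minus the mean of the control virus arrays, with the standard error (SE) and 95% interval of a limma fit over 12735 genes. A gene rose or fell where its Benjamini-Hochberg adjusted p in that fit was under 0.05. The fit takes the spread from the control arrays and from other genes, and it assumes that the single Cre virus array varies as the controls do. Hnf4a was lower in the Cre virus liver on all 4 of its probe sets, by between 0.55 and 1.18 on the log2 scale, and its brightest probe set passed (11.38 with Cre virus, against 11.91 and 11.96 with control virus, limma adjusted p = 0.0401, lost in 3 of 8 other settings). With each probe set fitted alone, that probe set did not pass (limma adjusted p = 0.0525), and 1 of the other 3 did, at 6.52 with Cre virus, against 7.69 and 7.72 with control virus (0.0282). Hepatocyte transcripts were abundant on every array. Alb, the albumin gene, was at 14.62 with Cre virus, against 14.75 and 14.72 with control virus. Of 6 fitted hepatocyte markers none rose and 1 fell, Apoh, beside 6.71% and 5.21% of all fitted genes. Apoh was at 13.19 with Cre virus, against 13.96 and 13.90 with control virus (limma adjusted p = 0.0164, lost in 1 of 8 other settings). Kupffer cell markers were higher with Cre virus than the control mean in 10 of 10 genes. They were above both controls in 9, beside 49.7% of all fitted genes. In limma 1 of the 10 rose, Marco, beside 6.71% of all fitted genes, and 2 had an unadjusted p under 0.05, beside 31.2%. The summed linear signal of these markers was 2289 with Cre virus, against 1147 and 1834 with control virus. Other cell types were also above both controls, in 5 of 7 fitted endothelial and 4 of 6 stellate markers. So were 2 of 2 cholangiocyte and 3 of 3 T cell, NK cell and neutrophil markers, but 0 of 3 plasma and B cell markers. Of all these the cholangiocyte marker Sox9 alone rose, by 2.35, and its call was lost in 3 of 7 other settings.

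Of the 10 stress response genes, none rose and 1 fell, Herpud1. Over all fitted genes, 6.71% rose and 5.21% fell, so neither count sets the group apart. Herpud1 was also the only member with an unadjusted limma p under 0.05, beside 31.2% of all fitted genes (20.4% higher and 10.8% lower). The member differences ran from -1.02 to 0.29 with a median of -0.02, beside a median of 0.09 over all fitted genes. Their absolute differences had a median of 0.24, beside 0.30 over all fitted genes. In 5 members the Cre virus value lay above both controls, in 4 below both and in 1 between them, while over all fitted genes these shares were 49.7%, 33.6% and 16.6%. For 7 of 10 members the 95% interval lay wholly within 1 log2 unit of 0, as it did for 71.8% of all fitted genes. The other 3 were Dnajb9, Herpud1 and Chac1. The 7 include Atf3, whose control mean of 3.74 lay below the 3.77 that served as the filter on dim genes. Atf3 was fitted only through its Cre virus value, and a change in it could not be sized.

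**Figure D1:**
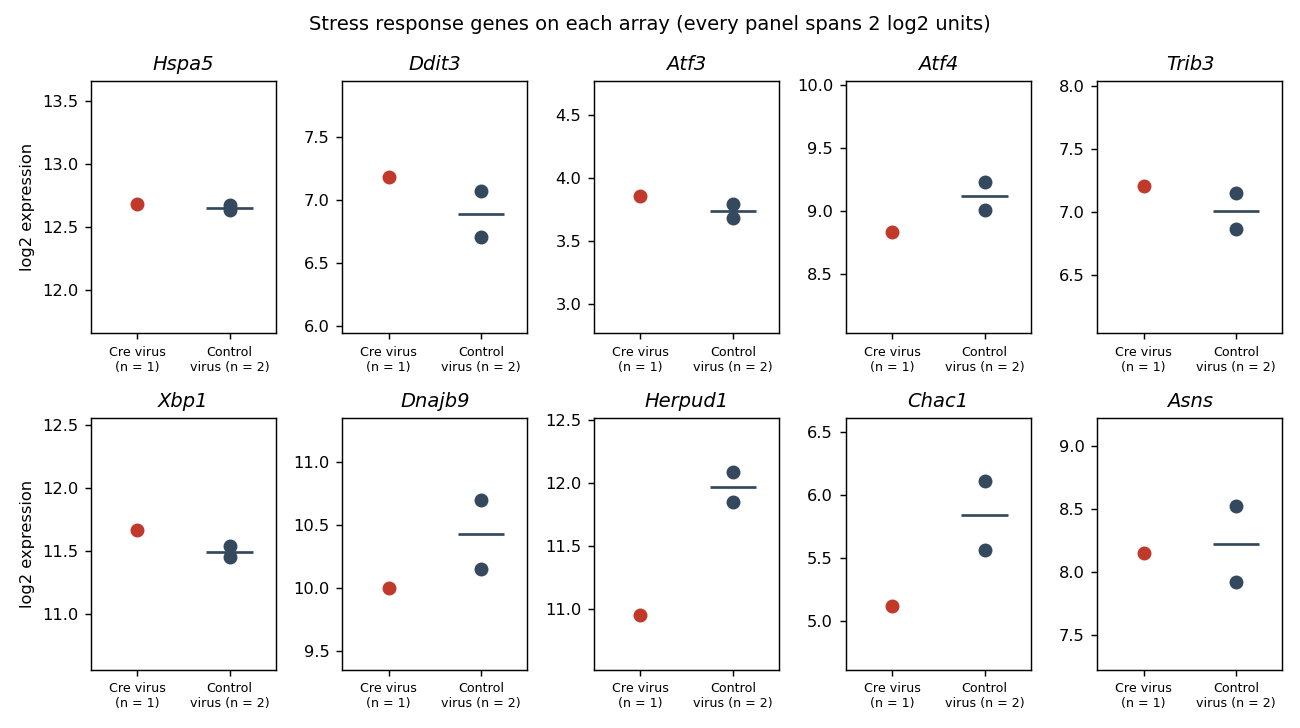
log2 expression (y axis, each panel spanning 2 log2 units around its own centre) of the 10 genes in the Cre virus liver (red, n = 1) and the control virus livers (dark, n = 2, with a line at their mean). Herpud1 shows the widest gap between the Cre virus point and both control points, while for Asns the Cre virus point sits between the controls.

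Herpud1 encodes a ubiquitin-like protein of the ER membrane that takes part in ER-associated degradation, the removal of misfolded proteins to the proteasome. Its brightest probe set, 1448185_at, read 10.95 with Cre virus, against 11.85 and 12.08 with control virus. The Cre virus value lay below both controls, and its distance from the nearer control was wider than the gap of 0.23 between the controls. The level was 2.02-fold lower with Cre virus (difference -1.02 ± 0.14 SE, interval -1.39 to -0.64, limma adjusted p = 0.0239). The second probe set, 1435626_a_at, read 9.48 with Cre virus, against 10.27 and 10.52 with control virus. It moved in the same direction by a similar amount but did not pass when each probe set was fitted alone (-0.91 ± 0.15 SE, limma adjusted p = 0.0518 over 21748 probe sets, of which 3.71% fell). Herpud1 was 0.90 below control 1 and 1.13 below control 2, so it did not reach 1 log2 unit outside both controls, a size that 3.72% of fitted genes reached as lower and 3.67% as higher. Of all fitted genes, 91.2% had a smaller absolute difference. In whole liver, fewer cells that express a gene and less of its RNA per cell cannot be told apart, and the part played by the higher Kupffer cell markers was not tested. The summed hepatocyte markers stood at 114680 with Cre virus, against 116928 and 118614 with control virus, a sum in which the brightest markers weigh most. The differences of the 6 fitted markers ran from -0.74 (Apoh) to 0.33 (Cps1), and the share of hepatocytes was not tested.

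Herpud1 and Hspa5 are shown as sequence because both carry an ER stress response element near their start and yet differed in these livers. The element ERSE is written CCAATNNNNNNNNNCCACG and its variant ERSE-II is written ATTGGNCCACG, and both are read by ATF6 and XBP1 together with the factor NF-Y. RefSeq promoter windows of 300 bases (250 before and 50 after the gene start, build GRCm38.p6) were searched on both strands for ERSE, ERSE-II and the core TGATGNAA of the C/EBP-ATF response element (CARE), to which ATF4 binds with C/EBP partners. All 10 members had a window. The bases before the start are printed 5′ to 3′ on the strand of the gene, with ERSE, ERSE-II and CARE matches in capitals, for Herpud1 at chr8:94386179-94386428 (plus strand) and for Hspa5 at chr2:34771840-34772089 (plus strand).
Herpud1: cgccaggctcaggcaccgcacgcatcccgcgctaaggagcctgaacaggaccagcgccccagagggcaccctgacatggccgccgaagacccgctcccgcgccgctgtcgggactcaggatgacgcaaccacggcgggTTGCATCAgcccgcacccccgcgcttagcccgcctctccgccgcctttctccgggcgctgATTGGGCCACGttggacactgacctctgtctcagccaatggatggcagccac
Hspa5: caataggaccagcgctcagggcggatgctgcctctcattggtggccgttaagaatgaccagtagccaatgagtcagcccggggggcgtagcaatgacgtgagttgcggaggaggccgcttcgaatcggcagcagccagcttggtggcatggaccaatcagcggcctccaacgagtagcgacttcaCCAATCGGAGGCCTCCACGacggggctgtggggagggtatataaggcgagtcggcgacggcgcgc
The capitals of Herpud1 are a CARE match on the minus strand, 112 to 105 bases before the start, and an ERSE-II match, 52 to 42 bases before it. Those of Hspa5 are an ERSE match, 65 to 47 bases before the start. An ERSE match was present in 0.119% of 32851 promoter windows, an ERSE-II match in 0.0365% and a CARE match in 3.97%. The motifs overlapped in neither of these windows.

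Hspa5, which encodes the ER chaperone BiP, read almost the same level on every array. It was at 12.68 with Cre virus, against 12.67 and 12.63 with control virus. The 3 arrays lay within 0.053 of each other, with the Cre virus value just above both controls. The difference was 0.03 ± 0.09 SE, and its interval ran from 0.865-fold to 1.21-fold of the control level (limma adjusted p = 0.831). The other Hspa5 probe sets differed by -0.04 and 0.16, and neither passed.

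Dnajb9, which encodes the BiP co-chaperone ERdj4, read 10.01 with Cre virus, against 10.16 and 10.70 with control virus. The Cre virus value lay below both controls, but only 0.15 below the nearer one, while the controls differed from each other by 0.55. The difference of -0.42 ± 0.26 SE did not pass, and its interval of -1.12 to 0.27 holds a fall of more than 1 log2 unit as well as a small rise (limma adjusted p = 0.329). Its single probe set allows no second reading.

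Among the transcription factors of the response, none passed. Xbp1, whose spliced transcript encodes the factor that raises ER folding and degradation genes, was at 11.67 with Cre virus, against 11.45 and 11.54 with control virus. The Cre virus liver was highest, by 0.13 over the nearer control, and the difference was 0.17 ± 0.10 SE (limma adjusted p = 0.323). The other 3 Xbp1 probe sets differed by 0.015 to 0.14. Plasma cells need XBP1 for antibody secretion. On the array 4 of 4 plasma and B cell markers were lower with Cre virus than the control mean. None of the 3 that were fitted passed (1 at an unadjusted limma p under 0.05). Of these 3, 2 lay below both controls, beside 33.6% of all fitted genes. Ighm lay between the controls, at 6.11 with Cre virus, against 6.47 and 5.97 with control virus. Ms4a1 was too dim to be fitted. Cd79a was also dim, at 3.47 with Cre virus, against 4.32 and 3.71 with control virus. The summed linear signal of the 4 markers was 113 with Cre virus, against 155 and 131 with control virus. Their part in the Xbp1 level was not tested. Atf4, the central factor of the integrated stress response, was at 8.83 with Cre virus, against 9.01 and 9.23 with control virus. Here the Cre virus liver was lowest (-0.29 ± 0.15 SE, limma adjusted p = 0.28), but the next brightest Atf4 probe set put it between the controls (8.19 with Cre virus, against 7.81 and 8.34 with control virus).

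Ddit3 encodes CHOP, a factor induced by ATF4 and linked to cell death under lasting ER stress. It was at 7.18 with Cre virus, against 7.07 and 6.71 with control virus. The Cre virus value lay 0.11 above the nearer control, less than the gap of 0.36 between the controls (0.29 ± 0.21 SE, limma adjusted p = 0.402). The second probe set, 1443897_at, pointed the other way, at -0.26. Atf3, an early stress-induced repressor, stayed at the dim end of the array. Its only probe set read 3.86 with Cre virus, against 3.79 and 3.68 with control virus, next to the 3.77 that served as the filter on dim genes. A change in a transcript this close to background would be compressed, and the difference of 0.12 ± 0.18 SE did not pass (limma adjusted p = 0.686).

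Chac1, Trib3 and Asns, which act downstream of ATF4, did not pass either. Chac1 encodes an enzyme that breaks down glutathione, and it was at 5.12 with Cre virus, against 5.57 and 6.11 with control virus. That was below both controls, 0.45 under the nearer and 0.99 under the farther. The difference of -0.72 ± 0.28 SE was larger than in 83.9% of fitted genes but fell short of the threshold (interval -1.48 to 0.04, limma adjusted p = 0.176). Trib3, a pseudokinase that binds AKT and ATF4, was at 7.21 with Cre virus, against 7.15 and 6.87 with control virus, so it sat 0.06 above the nearer control (0.20 ± 0.18 SE, limma adjusted p = 0.505). Its second probe set read nearly the same level in every liver, at 6.11 with Cre virus, against 6.11 and 6.14 with control virus. Asns, asparagine synthetase, was at 8.15 with Cre virus, against 8.53 and 7.92 with control virus. This was the only member whose Cre virus value lay between the controls, and its control gap of 0.60 was the widest of the 10 (-0.07 ± 0.29 SE, limma adjusted p = 0.888).

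**Figure D2:**
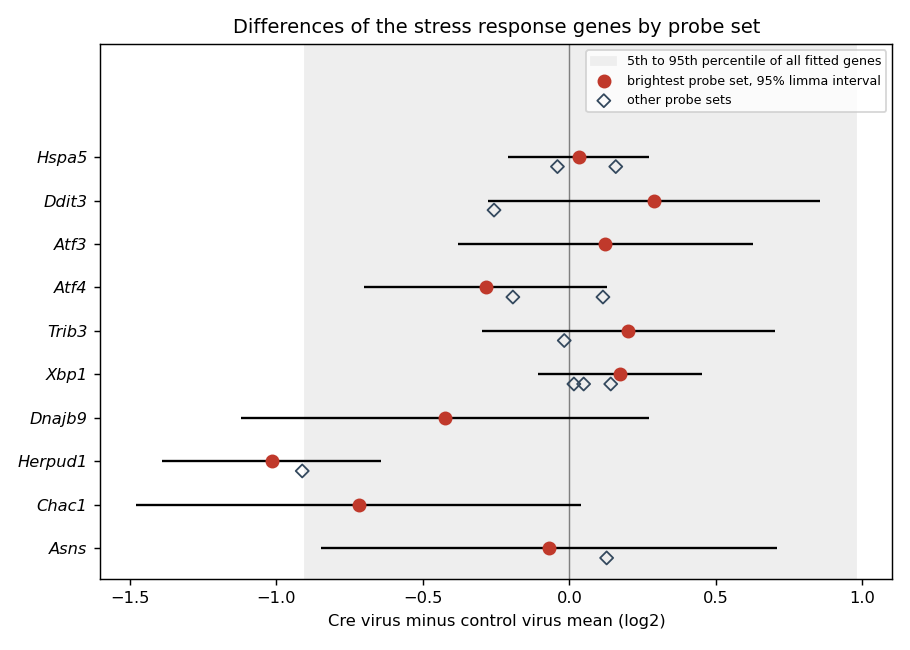
Cre virus minus control virus mean (x axis, log2) of the 10 genes, with the brightest probe set as a filled point and its 95% limma interval as a line, the other probe sets as diamonds, and the 5th to 95th percentile of all 12735 fitted genes shaded (-0.90 to 0.98). Of the 10 intervals, that of Herpud1 alone lies clear of 0.

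The spread between control livers and between probe sets bears on how these values can be read. The controls differed by a median of 0.26 in the members, beside 0.15 over all fitted genes, and by over 0.5 in 3 of them (Dnajb9, Chac1 and Asns), against 6.42% of all fitted genes. In 5 of the 10 the control gap was wider than the absolute difference, a count not made over all fitted genes. Of the 7 members with several probe sets, 5 had differences of both signs and 2, Herpud1 and Xbp1, had a single sign. Of the 21 probe sets 20 passed the filter on dim values, and 17 differed by less than 0.3 in either direction. The median absolute difference over all fitted genes was 0.30, so differences below 0.3 were common in the whole table as well. The exception to the filter was the third Atf4 probe set, 1439258_at, at 3.07 with Cre virus, against 3.37 and 3.16 with control virus.

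CARE matches were the response element most often found in the members, and the stretches around them are shown because the same letters recur in genes with unlike differences. Herpud1 (above), Chac1 (chr2:119351019-119351086, plus strand) and Atf3 (chr1:191183406-191183473, minus strand) hold the identical match on the strand opposite the gene, and Asns (chr6:7693210-7693247, minus strand) holds a match in the sense direction. Capitals mark the CARE core.
Chac1: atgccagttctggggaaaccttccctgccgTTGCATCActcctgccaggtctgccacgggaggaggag
Atf3: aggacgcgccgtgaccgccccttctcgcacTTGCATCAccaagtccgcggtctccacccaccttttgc
Asns: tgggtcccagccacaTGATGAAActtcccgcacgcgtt
The match lies 193 bases before the start in Chac1, 110 in Atf3 and 23 in Asns, counted from its first printed base. Trib3 had a CARE match 14 bases after its start. In all, 5 of the 10 members had a CARE match, and their differences ran from -1.02 in Herpud1 to 0.20 in Trib3. Ddit3, Atf4, Xbp1 and Dnajb9 held none of the searched motifs in their windows, which says only that these letters are not there. The cores TGACGTGG (unfolded protein response element), TGACGTCA (cyclic AMP response element) and CAAAGTCCA (an HNF4-selective site) were found in 0.676%, 1.79% and 0.475% of all windows and in none of the members' windows.

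**Figure D3:**
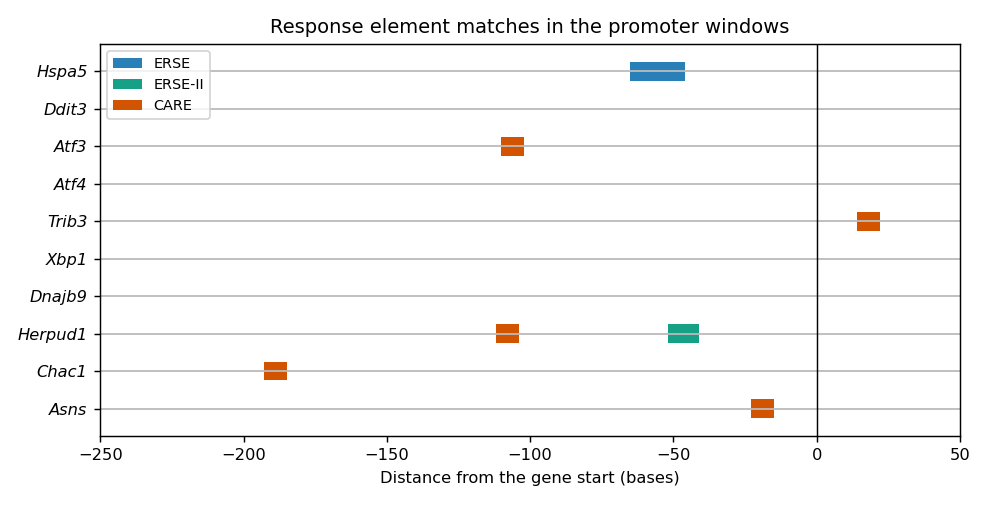
Position of ERSE, ERSE-II and CARE matches (coloured boxes, to scale) relative to the start of each of the 10 genes (x axis, bases, with 0 at the start). Herpud1 is the member with 2 different elements, and ERSE was matched in Hspa5.

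Fitted genes that share the rare ER elements with Hspa5 and Herpud1 were read across the whole table. Of 17 fitted genes with an ERSE match, 10 were in the lists of stress response members, ER chaperones or ER-associated degradation. Of the 17, none rose and 1 fell, Derl3, by limma, beside 6.71% and 5.21% of all fitted genes. At an unadjusted limma p under 0.05, 5 of the 17 were higher and 2 lower, beside 20.4% and 10.8%. Their median difference was 0.03, with a range from -1.17 (Derl3) to 1.72 (Acnat2, limma adjusted p = 0.0733). The chaperone genes Calr (12.51 with Cre virus, against 12.18 and 11.86 with control virus) and Hsp90b1 (12.13 with Cre virus, against 11.52 and 11.69 with control virus) lay above both controls, by differences of 0.49 and 0.52, and did not pass. Hsp90b1 passed in 2 of 7 other settings, after median centring (limma adjusted p = 0.0488) and after quantile normalization (0.0306). As the mean of its probe sets it was at 0.23 and did not pass. Of 8 fitted genes with an ERSE-II match, Herpud1 and Rcl1 (-0.85 ± 0.11 SE, limma adjusted p = 0.0225) fell and Lgalsl rose (1.46 ± 0.21 SE, limma adjusted p = 0.0266), beside the same 5.21% and 6.71%. At an unadjusted limma p under 0.05, 3 of the 8 were higher and 2 lower, beside 20.4% and 10.8%. Dnajb11, an ER co-chaperone with the same element, was at -0.02 ± 0.12 SE.

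**Figure D4:**
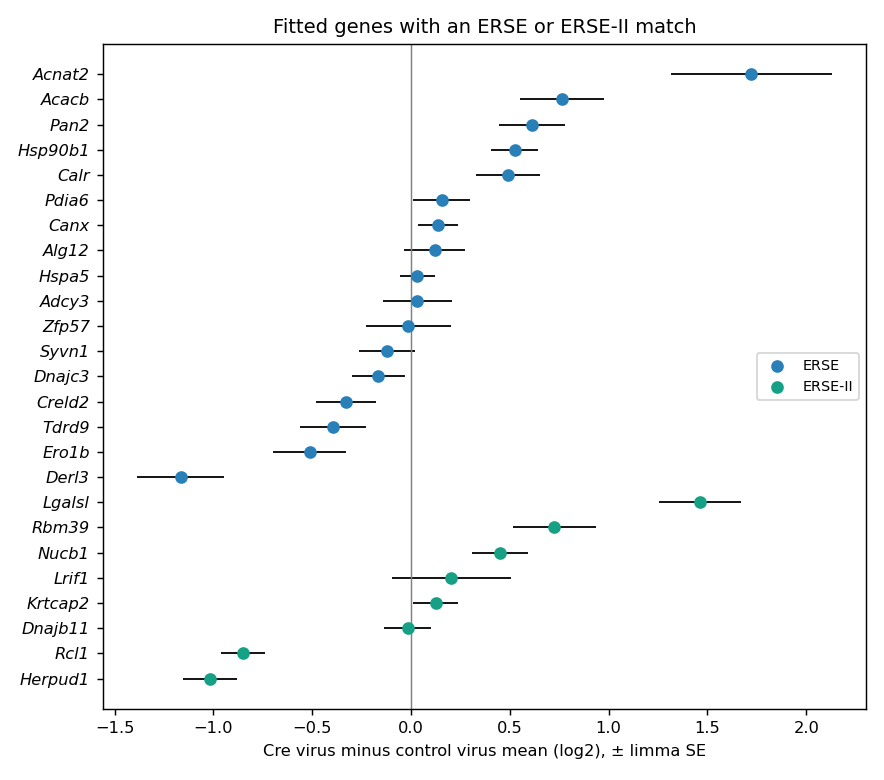
Cre virus minus control virus mean (x axis, log2, bars ± limma SE) of the 17 fitted genes with an ERSE match and the 8 with an ERSE-II match in their promoter window. Hspa5 lies at 0.03 near the middle of its group, and Herpud1 at -1.02 is the lowest of the ERSE-II group.

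The machinery around the members was described through lists of related genes. Among 14 fitted sensors and regulators, 1 rose and none fell, beside 6.71% and 5.21% of all fitted genes, with a median of 0.16. At an unadjusted limma p under 0.05 there were 4 higher and 1 lower, beside the same 20.4% and 10.8%. Mbtps2, the site-2 protease that releases ATF6 in the Golgi, was at 7.70 with Cre virus, against 6.81 and 6.83 with control virus, and rose 1.85-fold (0.89 ± 0.14 SE, limma adjusted p = 0.0332). The call was lost in 1 of 8 other settings. Its partner Mbtps1 (0.42), the ATF6 gene itself (0.45) and Rtcb, which ligates Xbp1 after splicing (0.51), lay above both controls without passing. Rtcb passed in 1 of 8 other settings, after quantile normalization (limma adjusted p = 0.047). Without probe sets of the suffixes _s_at, _x_at and _a_at Rtcb was at 0.22. As means of their probe sets Mbtps1 was at 0.23, Atf6 at 0.36 and Rtcb at 0.54, and none passed. Ern1 (IRE1) was at 0.32 ± 0.23 SE, Eif2ak3 (PERK) at 0.25 ± 0.19 SE, and the phosphatase subunits that end eIF2alpha phosphorylation, Ppp1r15a and Ppp1r15b, at -0.14 and 0.04. Creb3l3, which encodes CREBH, an ER-bound factor of hepatocytes, was at 9.69 with Cre virus, against 10.15 and 10.32 with control virus. That was below both controls but not past the threshold (-0.55 ± 0.13 SE, limma adjusted p = 0.0736; it passed after quantile normalization, at 0.0263).

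Of 22 ER chaperones and disulfide isomerases, none rose and 1 fell, beside 6.71% and 5.21% of all fitted genes, with a median of 0.08. At an unadjusted limma p under 0.05 there were 3 higher and 3 lower, again beside 20.4% and 10.8%. Pdia5, a disulfide isomerase, was at 7.66 with Cre virus, against 9.45 and 9.14 with control virus, a 3.11-fold lower level (-1.64 ± 0.18 SE, limma adjusted p = 0.0155). The cofactors Hyou1 (-0.15) and Dnajc3 (-0.17) did not pass. In ER-associated degradation, the process Herpud1 serves, 1 of 16 fitted genes rose and 1 fell, beside the same 6.71% and 5.21%. The median was -0.0093, and 4 of the 16 had an unadjusted limma p under 0.05, beside 31.2% of all fitted genes. Edem2, which helps to mark misfolded glycoproteins, rose (8.47 with Cre virus, against 7.40 and 7.27 with control virus, 1.14 ± 0.14 SE, limma adjusted p = 0.0207). As the mean of its probe sets it was at 0.56 and did not pass (0.135). Derl3, a derlin of the ER membrane, fell (5.70 with Cre virus, against 6.67 and 7.06 with control virus, -1.17 ± 0.22 SE, limma adjusted p = 0.047), but passed in only 5 of 7 other settings. In the ligase complex that works with Herpud1, Sel1l was at -0.074 ± 0.12 SE and Syvn1 at -0.12 ± 0.14 SE.

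Of 19 fitted genes for entry into and exit from the ER, 1 rose and 2 fell, with a median of 0.22. In this list 4 of the 19 had an unadjusted limma p under 0.05, beside 31.2% of all fitted genes. Sec24d, a cargo subunit of the vesicle coat COPII, was at 9.05 with Cre virus, against 9.93 and 9.91 with control virus (-0.87 ± 0.11 SE, limma adjusted p = 0.0219). Kdelr2, a receptor that returns escaped chaperones to the ER, was at 10.03 with Cre virus, against 10.77 and 10.82 with control virus (-0.76 ± 0.11 SE, limma adjusted p = 0.0254, lost in 1 of 8 other settings). Ssr3, a subunit of the complex beside the translocon, rose (0.59 ± 0.10 SE, limma adjusted p = 0.0373, lost in 2 of 7 other settings). The channel gene Sec61a1 was at 0.11. Over the chaperone, degradation and transport lists together, 2 of 57 fitted genes rose and 4 fell, 3.51% and 7.02%, beside 6.71% and 5.21% of all fitted genes.

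**Figure D5:**
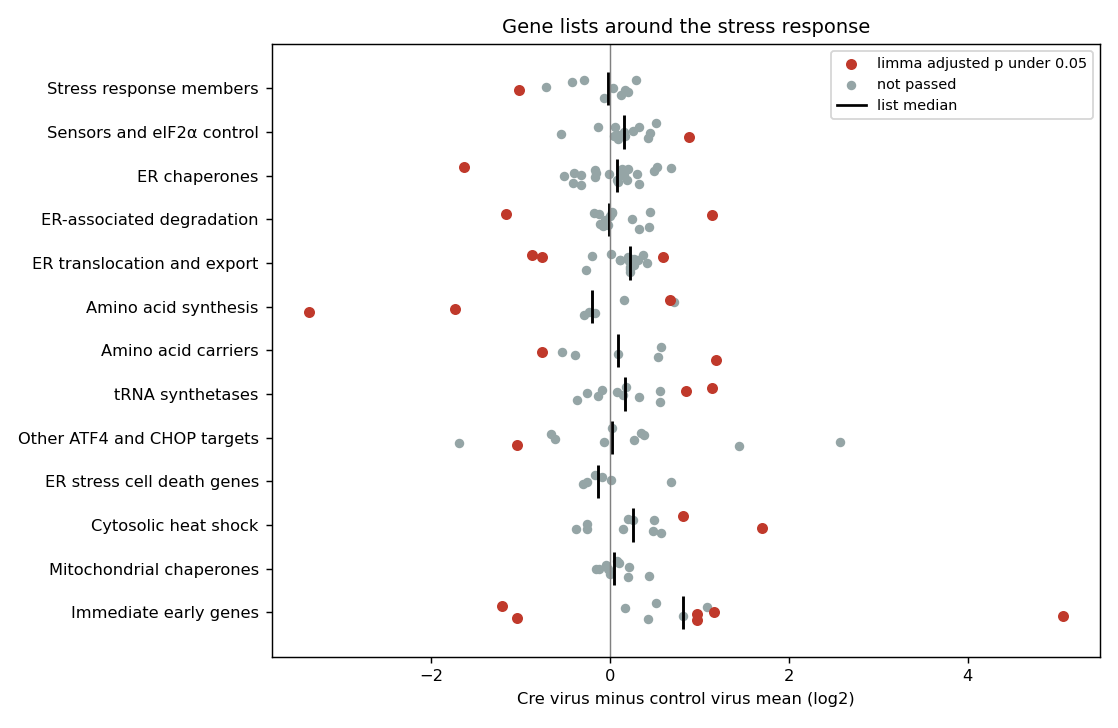
Cre virus minus control virus mean (x axis, log2) of every fitted gene in the stress response group and 12 related lists, with genes past limma's adjusted p of 0.05 in red, others in grey and the list median as a bar. The median of the stress response group lies at -0.02, and that of the immediate early genes at 0.81 is the highest of those drawn.

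The targets of ATF4 went in both directions. Over the ATF4-linked lists, 4 of 38 fitted genes rose and 4 fell, each 10.5%, beside 6.71% and 5.21% of all fitted genes. The unadjusted limma p was under 0.05 in 4 of 8 amino acid synthesis genes and 3 of 7 carriers. It was so in 5 of 12 tRNA synthetases and 7 of 11 other ATF4 or CHOP targets, beside 31.2% of all fitted genes. Shmt2, which feeds mitochondrial one-carbon metabolism, had the widest difference of the related lists other than Egr1, at 6.40 with Cre virus, against 9.73 and 9.79 with control virus (10.3-fold lower, -3.36 ± 0.13 SE, limma adjusted p = 0.00142). Its size depended on the probe sets used, at -2.16 as their mean and -2.57 without those of the suffixes _s_at, _x_at and _a_at, and it passed in both. Got1, the cytosolic aspartate aminotransferase, fell as well (9.65 with Cre virus, against 11.51 and 11.25 with control virus, -1.73 ± 0.15 SE, limma adjusted p = 0.0097). Cth, a cysteine-making enzyme, rose (0.68 ± 0.10 SE, lost in 2 of 8 other settings), and the serine synthesis gene Phgdh was at -0.24 without passing. Among carriers, Slc1a4 rose (1.19 ± 0.17 SE, lost in 1 of 7 other settings) and Slc38a2 fell (-0.76 ± 0.10 SE, and -0.44 without passing as the mean of its probe sets), while Slc7a5 was at 0.08 and Slc7a11 was too dim to be fitted.

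Of 12 tRNA synthetase genes 2 rose and none fell, beside 6.71% and 5.21% of all fitted genes. Lars rose (8.98 with Cre virus, against 7.78 and 7.89 with control virus, 1.14 ± 0.14 SE, limma adjusted p = 0.0184). Wars rose too (0.85 ± 0.16 SE, limma adjusted p = 0.0489), but passed in only 4 of 8 other settings. Their list median was 0.16, and Sars was at -0.13. Cebpb, a bZIP partner of ATF4 and CHOP, fell (10.41 with Cre virus, against 11.38 and 11.52 with control virus, -1.04 ± 0.12 SE, limma adjusted p = 0.0165). Other ATF4 or CHOP targets had wide differences that did not pass here but did in some other settings: Ddit4, an inhibitor of mTORC1, at -1.69 ± 0.37 SE, Vldlr at 2.57 ± 0.72 SE, the fasting hormone gene Fgf21 at 1.44 ± 0.31 SE, the translation repressor gene Eif4ebp1 at -0.66 ± 0.13 SE and Atf5 at -0.62 ± 0.17 SE. Fgf21 passed in 4 of 7 other settings, Ddit4 and Eif4ebp1 each in 3 of 8, Vldlr in 2 of 8 and Atf5 in 1 of 7. Sesn2 was at 0.03. The controls themselves stood 1.65 log2 units apart in Vldlr, at 3.96 and 5.61, against 7.36 with Cre virus, and averaging the probe sets of Vldlr gave a difference of 1.497.

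Chaperones outside the ER and early response genes were read for comparison. Of 11 fitted cytosolic heat shock genes 2 rose and none fell, beside 6.71% and 5.21% of all fitted genes. In this list 4 of the 11 had an unadjusted limma p under 0.05, beside 31.2%. Hspa1a was at 5.01 with Cre virus, against 3.52 and 3.10 with control virus (a difference of 1.70). Hspb1 was at 0.81 ± 0.12 SE (limma adjusted p = 0.0299). Both control values of Hspa1a lay below the filter value, so it entered the fit only through the high Cre virus array. It was 1 of 46 such genes among the 855 that rose. Its call is therefore given as a description only. No gene among 10 mitochondrial chaperones and proteases passed in limma (1 at an unadjusted p under 0.05), and their median was 0.04. Immediate early genes, the class with which Atf3 is often grouped, rose in 4 of 11 cases and fell in 2, beside the same 6.71% and 5.21%. Of the 11, 9 had an unadjusted limma p under 0.05, beside 31.2% of all fitted genes. Egr1 (11.74 with Cre virus, against 6.15 and 7.20 with control virus) and Jun (7.50 with Cre virus, against 6.28 and 6.40 with control virus) rose, and Dusp1 and Zfp36 fell by 1.21 and 1.04 on the log2 scale. Of 6 fitted cell death genes linked to ER stress, none passed in limma (1 at an unadjusted p under 0.05). Over all fitted genes, 11.9% passed in either direction and 31.2% had an unadjusted limma p under 0.05.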

How the data were processed

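The authors deposited log2 expression per probe set for 3 arrays of 45101 probe sets. Partek 6.5 and the RMA method are named in the submitters' processing notes. No source used here states the log base. Base 2 fits the deposited values, which peak at 15.05 on each array, and all folds depend on it. RMA equalises arrays, which hides a shift shared by all genes, and compresses differences near background. No detection calls were used. The number of arrays limits the precision.

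Probe sets with 1 gene in the platform annotation (34945) were kept, and 64 array controls, 932 probe sets with several genes and 9160 with none were left out. Symbols were updated by Entrez ID (34741 matched) through RefSeq's GRCm38.p6 gene table. The brightest probe set by mean stood for each gene, and genes whose mean over all arrays, Cre virus included, reached the 30th percentile (3.77) were fitted. limma 3.58.1 in R 4.3.3 (lmFit, eBayes with trend, 1 residual and 3.18 prior degrees of freedom) compared Cre virus with control virus, two-sided, with Benjamini-Hochberg adjustment over all fitted genes. The fit was tested on simulated data in which all arrays shared the same spread. That test could not check whether the single Cre virus array varies as the controls do. Replicates are the mice that the labels call biological replicates. Promoter windows came from RefSeq, and figures were drawn with matplotlib 3.10.9.

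The members and lists were chosen with earlier results of these data known. Genes named are the members, up to 5 passing genes of each list, and list genes with a described role that did not pass. The fitted genes with ERSE or ERSE-II matches were named after their values were seen. Alternatives were moderation, filter, scaling, probe set choice, thresholds and leaving out each control.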

Additional observations from a re-analysis of the deposited data

How the results depend on the processing

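Herpud1 passed in all 8 other settings at gene level (limma adjusted p from 0.00239 to 0.0489), and no other member passed in any of them. Herpud1 was at -1.13 without control 1 and -0.90 without control 2, which leave no spread to test, so counts of calls were not made there. The number of members that fell was 1 in every fitted setting and 0 where at least 1 log2 unit outside both controls was asked for. The genes that rose numbered 855 and were 446 without a filter, 471 without probe sets of the suffixes _s_at, _x_at and _a_at, 1780 at an adjusted p under 0.1 and 468 by size alone. Those that fell numbered 663 and were 1007 after quantile normalization and 1003 at an adjusted p under 0.1. Signs turned for genes that did not pass: after quantile normalization Hspa5 was at -0.031, Ppp1r15b at -0.0034, Slc7a5 at -0.020 and Sesn2 at -0.10. As means of probe sets Asns was at 0.029, Sesn2 at -0.048 and Sars at 0.012. With those suffixes left out Syvn1 was at 0.0060 and Hspa8 at -0.17. On other probe sets alone Hspa5 was at -0.041, Ddit3 at -0.26, Atf4 at 0.11, Trib3 at -0.018 and Asns at 0.13. Calls lost, beside those of Edem2 and Slc38a2 as means of probe sets, were those of Hnf4a (limma adjusted p = 0.0672), Mbtps2 (0.0542), Derl3 (0.0799), Ssr3 (0.0622), Cth (0.056) and Wars (0.0793) without a filter, of Hnf4a (0.0978), Derl3 (0.0594), Kdelr2 (0.0571), Ssr3 (0.0884), Cth (0.0767), Slc38a2 (0.058) and Wars (0.0585) without a trend, of Hnf4a (0.184), Slc1a4 (0.0635) and Wars (0.182) with those suffixes left out, and of Wars (0.0597) as the mean of its probe sets. The Apoh call was lost without a trend (limma adjusted p = 0.061). The causes were not tested. No paired analysis was possible because the Cre virus group has 1 array, so the groups share fewer than 2 replicate numbers. Atf3 lies at the filter value, so a change in it could not be sized here.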

Other observations

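The Kupffer cell marker Marco rose (6.58 with Cre virus, against 4.74 and 4.67 with control virus, 1.88 ± 0.16 SE, limma adjusted p = 0.0097), and averaging its probe sets gave 0.77, which passed as well. The controls differed from each other in this list, with control 2 above control 1 in 9 of 10 markers, as in Cd5l at 9.35 with Cre virus, against 7.97 and 8.81 with control virus.

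Of 63 fitted genes with the HNF4-selective letters CAAAGTCCA in their promoter window, 3 rose and 14 fell, beside 6.71% and 5.21% of all fitted genes. This count was made after the data were seen and was not tested.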
